A study of Mus musculus with 3 samples.

Results

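Tal1, Lyl1, Lmo2, Lmo4, Ldb1, Cbfa2t3, Tcf3, Tcf12, Ssbp2 and Ssbp3 encode the transcription complex that forms around Tal1, Lmo2 and Ldb1 in blood cells. These 10 genes were taken by name from the 21938 protein-coding genes of the GENCODE annotation of the mouse genome (mm10, GRCm38). Their sites were all DNase peaks whose midpoint lay within 100 kb of the gene body, which gave 887 of 304049 peaks in the list of biological replicate 1 and 312 of 106591 in that of biological replicate 2. DNase-seq maps open chromatin by where the enzyme DNase I can reach and cut it. The cells were MEL, a line of erythroleukaemia cells of the mouse, that is, transformed precursors of red cells. All 3 libraries came from cells kept for 24 hours in zinc dichloride, at a dose labelled 125 in a molar unit whose prefix cannot be read. Technical replicates 1 and 3 of biological replicate 1 stand behind its lists together, and 1 library stands behind those of biological replicate 2. Untreated cells were not analysed here, and no value below measures an effect of zinc. Strain beyond the line's name, sex and age are not given in the labels.

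Tal1 and Lyl1 are basic helix-loop-helix factors that pair with the widely expressed E-proteins Tcf3 and Tcf12 to bind E-boxes on DNA. The LIM-only adaptors Lmo2 and Lmo4 join such pairs, and Gata factors in red cells, to Ldb1, which dimerizes and can bring distant elements together, while Ssbp2 and Ssbp3 protect Ldb1 from degradation. Cbfa2t3 (also called Eto2) is a corepressor bound by the E-proteins, and the complex is known for holding red cell genes in check in progenitors and for driving them during maturation.

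Each biological replicate has a single list, which gives no spread between samples, so no difference was tested and the lists stand side by side. Each peak is 150 bp wide and has a score set by the authors, whose meaning the sources used here do not define. Scores ran from 1 to 150 in replicate 1 and from 1 to 145 in replicate 2 and served only to rank peaks of the same kind within a list. Read depth is unknown for both lists. Promoter peaks marked 9 of 9 erythroid marker genes in replicate 1 and 7 of 9 in replicate 2, where Slc4a1 and Alas2 had none. Over all protein-coding genes the shares with a promoter peak were 63.6% and 49%. The counts for markers of other cells were 5 and 2 of 6 for myeloid cells, 2 and 1 of 5 for T cells, 1 and 1 of 4 for B cells, 1 and 1 of 4 for liver and 2 and 0 of 4 for neurons, and the part of other cells in the values below was not tested.

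In erythroid cells the complex is known to recognise a composite element, in which the last bases of an E-box (CTG) and a GATA site lie a short, fixed distance apart. Matches to CTG and GATA separated by 8 or 9 bases, on either strand, were therefore sought in the peaks around the genes of the complex itself, those at promoters of neighbouring genes left out. There were 53 distinct matches around 8 of the 10 genes, and Lmo2 and Lmo4 had none. Of all distal peaks of the lists, 3.77% in replicate 1 and 3.6% in replicate 2 held a match. Distal peaks in replicate 1 ran from 25 at Lmo4 to 124 at Cbfa2t3, and a gene with more peaks has more places for a match. The number of genes with a match is therefore not a result about these genes. Among the peaks at promoters of neighbouring genes, 2 of 128 in replicate 1 and 4 of 80 in replicate 2 held a match, and in both lists one of them lay within reach of Lmo2. Of the 53, 13 lay inside a peak of both lists, at 7 genes. Their peaks ranged widely in rank in replicate 2. The one at Ldb1 scored 9, above 2.13% of distal peaks, and the one at Ssbp2 16, above 15.1%. The one at Ssbp3 −2.09 kb scored 72, above 99.5%. Each match is listed under a gene by distance alone. Those at Ldb1 +91.7 kb, Tcf12 +355 kb and Cbfa2t3 −92.3 kb lay within Armh3, Cgnl1 and Acsf3. The 13 are printed 5′ to 3′ on the strand that reads CTG before GATA, with those letters in capitals, 20 bases on each side and the distance from the gene's first start (plus is downstream).
Tal1 +39.5 kb, chr4:115095945-115096000, plus strand: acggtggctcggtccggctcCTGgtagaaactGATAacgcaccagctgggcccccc
Ldb1 +91.7 kb, chr19:45953480-45953534, minus strand: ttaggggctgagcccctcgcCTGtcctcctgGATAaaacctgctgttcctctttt
Cbfa2t3 −19.2 kb, chr8:122718321-122718375, plus strand: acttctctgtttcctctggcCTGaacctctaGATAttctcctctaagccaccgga
Cbfa2t3 −21.5 kb, chr8:122720532-122720587, plus strand: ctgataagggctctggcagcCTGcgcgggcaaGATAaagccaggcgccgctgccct
Cbfa2t3 −92.3 kb, chr8:122791337-122791392, plus strand: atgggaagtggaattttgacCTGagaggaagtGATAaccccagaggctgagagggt
Tcf3 −9.42 kb, chr10:80443038-80443092, plus strand: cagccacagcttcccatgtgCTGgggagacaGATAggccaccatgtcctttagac
Tcf3 −42 kb, chr10:80475594-80475649, minus strand: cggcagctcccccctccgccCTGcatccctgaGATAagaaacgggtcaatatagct
Tcf3 −42.1 kb, chr10:80475676-80475731, plus strand: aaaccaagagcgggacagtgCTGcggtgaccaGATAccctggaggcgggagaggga
Tcf12 +355 kb, chr9:71757041-71757096, minus strand: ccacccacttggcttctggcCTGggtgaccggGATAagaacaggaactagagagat
Tcf12 +338 kb, chr9:71774000-71774054, plus strand: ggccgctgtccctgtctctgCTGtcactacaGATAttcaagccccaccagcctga
Ssbp2 +207 kb, chr13:91666982-91667036, plus strand: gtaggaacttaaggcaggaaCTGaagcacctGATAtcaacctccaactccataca
Ssbp3 −2.09 kb, chr4:106908587-106908641, minus strand: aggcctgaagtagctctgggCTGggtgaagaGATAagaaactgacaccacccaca
Ssbp3 −0.343 kb, chr4:106910331-106910385, minus strand: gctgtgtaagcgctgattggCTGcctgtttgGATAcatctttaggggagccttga
The spacing was 8 bases in 7 of the 13 and 9 bases in 6. The letters GATA stood in the fuller form of a GATA site, with A or T before and A or G after, in 6 of the 13 and 27 of the 53. The fuller form of an E-box (CANNTG) in front of them was found in 0 of the 13 and 3 of the 53. Shares of these fuller forms among matches in all peaks were not computed.

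Whole peaks are printed for flanking sites at Tal1 and Ssbp3, the former because it is the highest ranked distal site of Tal1 in both lists and the latter because it is the only site picked by rank at a gene that holds the composite. Capitals mark every match to a searched motif, and sequences are from the peaks of replicate 2.
Tal1 +40.0 kb, chr4:115096396-115096545, plus strand: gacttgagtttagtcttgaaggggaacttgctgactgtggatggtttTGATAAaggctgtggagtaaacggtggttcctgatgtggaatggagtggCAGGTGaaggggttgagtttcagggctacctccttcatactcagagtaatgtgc
Ssbp3 −2.15 kb, chr4:106908476-106908625, plus strand: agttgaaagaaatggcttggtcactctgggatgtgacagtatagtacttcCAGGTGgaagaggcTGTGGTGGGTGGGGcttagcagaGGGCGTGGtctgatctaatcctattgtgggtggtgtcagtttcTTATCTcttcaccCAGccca
The Tal1 peak held a GATA site (TGATAA) and an E-box (CAGGTG) but no composite, which lay in the neighbouring peak at +39.5 kb. The Ssbp3 peak held a composite (read on the other strand), an E-box, a RUNX match and a pair of KLF matches. A match describes letters and does not show that a factor was bound.

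Promoter peaks that show how the start regions of these genes differ in sequence follow, on the strand of the gene, with matches to searched motifs in capitals. The Cbfa2t3 peak is from replicate 1 and the others are from replicate 2. The highest promoter peak of Cbfa2t3 in replicate 2 (chr8:122699436-122699585, score 71) held a GATA match and the E-box CAGATG but no composite.
Tal1 promoter, chr4:115058176-115058325, plus strand: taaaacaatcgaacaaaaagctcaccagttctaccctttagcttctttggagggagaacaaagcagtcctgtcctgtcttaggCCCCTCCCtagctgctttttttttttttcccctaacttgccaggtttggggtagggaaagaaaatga
Tcf3 promoter, chr10:80433876-80434025, minus strand: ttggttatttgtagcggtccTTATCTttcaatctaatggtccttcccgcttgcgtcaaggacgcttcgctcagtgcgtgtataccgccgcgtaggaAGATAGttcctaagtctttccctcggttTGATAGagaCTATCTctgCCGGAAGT
Lmo2 promoter, chr2:103969056-103969205, plus strand: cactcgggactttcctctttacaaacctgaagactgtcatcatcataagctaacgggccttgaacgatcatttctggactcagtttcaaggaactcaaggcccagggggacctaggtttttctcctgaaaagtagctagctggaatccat
Ldb1 promoter, chr19:46039636-46039785, minus strand: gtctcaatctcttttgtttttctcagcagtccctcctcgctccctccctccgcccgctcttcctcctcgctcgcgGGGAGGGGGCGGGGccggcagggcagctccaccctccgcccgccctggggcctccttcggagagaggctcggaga
Cbfa2t3 promoter, chr8:122699156-122699305, minus strand: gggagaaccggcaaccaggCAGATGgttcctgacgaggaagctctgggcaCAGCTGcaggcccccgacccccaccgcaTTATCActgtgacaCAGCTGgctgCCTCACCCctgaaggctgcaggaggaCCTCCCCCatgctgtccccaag
The Tcf3 peak held 4 GATA matches and an ETS match (CCGGAAGT), the Ldb1 peak 3 overlapping KLF matches (CCNCNCCC) in a sequence of 69.3% G and C, and the Lmo2 peak no match at all. In the Cbfa2t3 peak, E-boxes of the form CAGCTG stand on both sides of a stretch that holds a GATA site read on the other strand, and this is the promoter composite of that gene.

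All 10 genes had at least 1 peak within 1000 bp of an annotated start in both lists. Over all protein-coding genes that share was 63.6% in replicate 1, 49% in replicate 2 and 48.9% in both. The highest promoter peak of each gene had a median rank above 90.4% of promoter peaks in replicate 1 and above 83% in replicate 2. The highest of several peaks ranks high by construction, and over all protein-coding genes with a promoter peak the same median was 82.6% and 75.6%. The genes of the complex also had more promoter peaks each, with a median of 7 and 4, beside 3 and 3. A gene with more annotated starts has more windows in which a promoter peak can be counted, and genes were not matched for this. Annotated starts ran from 1 at Lyl1, which had 3 promoter peaks in each list, to 20 at Tcf12. Over all 71 and 54 own promoter peaks the median rank was 55% and 55.4%. The highest promoter peak was taken in each list apart, and those of the lists overlapped only at Lyl1 and Ldb1. In bulk chromatin a site open in few cells and one weakly open in all cells cannot be told apart.

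**Figure D1:**
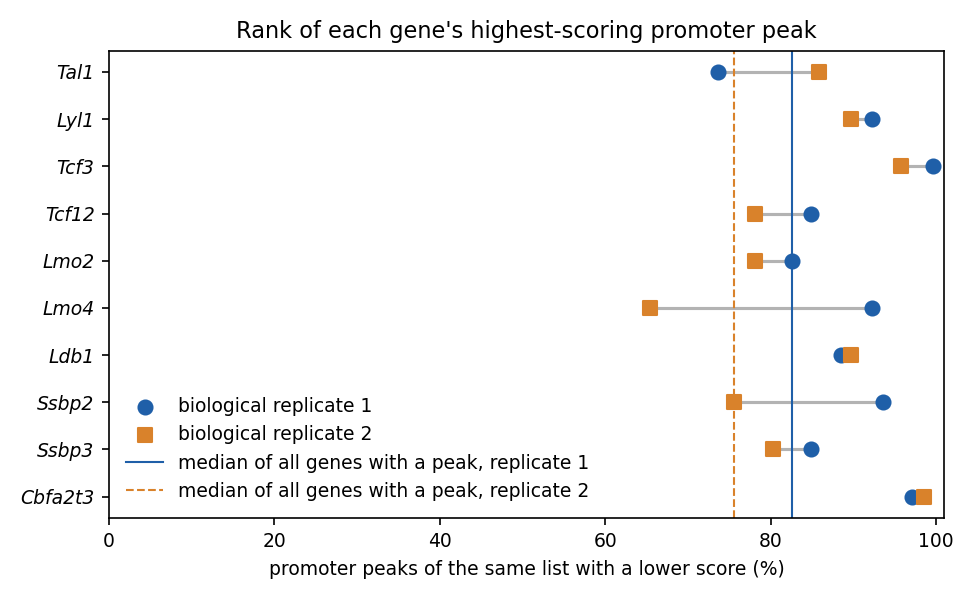
For each gene (rows), the horizontal axis gives the percent of promoter peaks of the same list with a lower score than the gene's highest promoter peak, as circles for biological replicate 1 and squares for biological replicate 2. Vertical lines give the median of the same rank over all protein-coding genes with a promoter peak, 82.6% (solid, replicate 1) and 75.6% (dashed, replicate 2). Points run from 65.4% (Lmo4, replicate 2) to 99.7% (Tcf3, replicate 1), and Tal1 in replicate 1 and Lmo4 in replicate 2 lie left of their line.

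Among the helix-loop-helix genes, Tal1, the founding factor of the complex, had its highest promoter peak at a score of 126 in replicate 1, above 73.6% of promoter peaks, and of 52 in replicate 2, above 85.8%. The peaks sat at different places, the first 0.585 kb and the second 1.82 kb past the first of 4 annotated starts. Lyl1, its closest relative, scored 143 and 55, above 92.3% and 89.7%. Lyl1 is a short gene of 3.26 kb, and in replicate 1 it lay whole within a single hotspot of 7401 bp, wider than all but 12 of 257885 hotspots on the chromosomes. A hotspot is a broader stretch enriched in DNase I cuts, to which the authors gave a −log10 q value. In replicate 2 the hotspot at Lyl1 was 1675 bp wide and covered 35% of the gene.

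The E-protein genes ranked near the top at one and lower at the other. Tcf3, which encodes E12 and E47, scored 150 in replicate 1, above 99.7% of promoter peaks, and 62 in replicate 2, above 95.8%. Those peaks were adjacent without overlap, so that none of the 6 promoter peaks of Tcf3 in replicate 1 was shared with the single one in replicate 2. Both lists placed a hotspot there, of 1023 bp and 899 bp. Tcf12, which encodes HEB, scored highest at an internal start region 215 kb into a gene of 269 kb, with 137 and 48. At its first start region the scores were 131, above 78.3% of promoter peaks, and 34, above 39.1%.

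The adaptor genes differed in which of their start regions ranked highest. Lmo2, the bridging LIM-only protein of red cells, had its highest scores at the proximal start region, 135 and 48, above 82.6% and 78.1% of promoter peaks. At the distal start of Lmo2 the scores were 107 and 34, above 58.2% and 39.1%, so the proximal region ranked higher in both lists. Lmo4 scored 143 in replicate 1, above 92.3%, at its first start region, and 43 in replicate 2, above 65.4%, at its second. In replicate 2 its first region scored 40, above 56.9%, and the peak overlapping the one of 143 scored 22, above 9.81%. In replicate 1 the second region of Lmo4 scored 136, above 83.7%. All 10 of its promoter peaks in replicate 1 lay in 2 start regions, covered by 1 hotspot of 6438 bp, wider than all but 23 on the chromosomes. Ldb1, the dimerizing core, scored higher at its second start region (140 and 55) than at its first (133 and 53). These regions ranked above 88.5% and 80.4% of promoter peaks in replicate 1, and above 89.7% and 87.2% in replicate 2. Ssbp2 scored 144 and 47, above 93.6% and 75.6%, and Ssbp3 137 and 49, above 84.9% and 80.3%. In replicate 2 the peaks overlapping those of 144 and 137 scored 27 and 40, above 20.2% and 56.9%.

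Cbfa2t3, the corepressor, scored 147 and 71, above 97.1% and 98.6% of promoter peaks, the highest promoter rank of the 10 in replicate 2 and the second in replicate 1. Its widest hotspot in replicate 1, 6857 bp, spanned the start, and 18 were wider. The start region of 3 coding transcripts inside Cbfa2t3 (chr8:122678072-122678694) had no peak in either list. Across the 10 genes, annotated starts formed 37 regions, and 24 had a peak in replicate 1 and 17 in both. The first region had one at 10 of 10 genes in both lists, while later regions had one in 14 of 27 in replicate 1 and 7 of 27 in replicate 2. Regions with starts of noncoding transcripts alone had one in 5 of 16 and 1 of 16. That 1 was an internal region of Ssbp3, at 135 and 44.

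Distal sites, those away from every promoter of a protein-coding gene, made up 688 of the 887 peaks in replicate 1 and 178 of the 312 in replicate 2. Own introns held 197 and 57 of them, the upstream flank 271 and 73, the downstream flank 212 and 46, and own exons 8 and 2. A further 128 and 80 peaks lay at promoters of neighbouring genes. Per 100 kb, the median gene of the complex had 22.9 distal peaks in replicate 1 and 6.13 in replicate 2, beside 16.2 and 4.14 over all protein-coding genes. This was above the median in 9 of 10 genes in replicate 1 (all but Lmo4) and in 8 of 10 in replicate 2 (all but Tal1 and Lmo4).

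**Figure D2:**
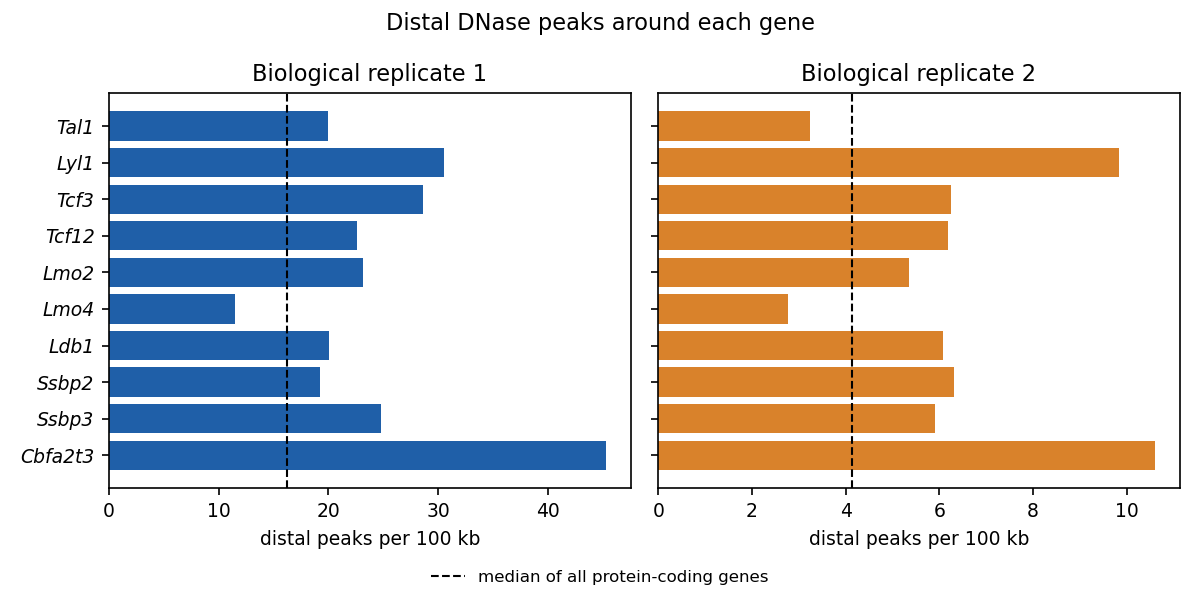
Bars give distal peaks per 100 kb of gene body and flanks (horizontal axis) around each gene (rows), with biological replicate 1 on the left and replicate 2 on the right. The dashed line is the median of all protein-coding genes, 16.2 and 4.14. Cbfa2t3 has the longest bar in both panels, and Lmo4 the shortest.

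Counting all peaks, Cbfa2t3 stood above 99.6% of genes in replicate 1, with 154 peaks, and above 88.2% in replicate 2, with 45. Lyl1 stood above 97.1% of genes with 92 peaks and above 95.7% with 44, the highest of the 10 in replicate 2. Tal1 was lower, above 69.4% with 59 peaks and above 35.8% with 11. Ssbp2 lay at the middle in both lists, above 49.4% and 49.1% of genes. At Lyl1, 27 of the 92 peaks and 21 of the 44 lay at promoters of neighbouring genes. By distal peaks alone, Lyl1 stood above 96.3% and 91.4% of genes, below Cbfa2t3 at 99.8% and 93.1%. Hotspots covered more of the span of each gene than the 3.95% and 1.24% of the genome they covered in the 2 replicates. The genome includes stretches far from genes, and the same cover over the spans of all protein-coding genes was not computed. The difference is therefore not shown to be particular to these genes. The median over the genes of the complex was 11.9% and 3.04%, and the highest was 24.7% at Cbfa2t3 in replicate 1 and 5.61% at Lyl1 in replicate 2.

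The count at Cbfa2t3 in replicate 1 includes a run of weak peaks beyond its 3′ end. Between 75 and 90 kb from its start, around Pabpn1l, Trappc2l and Galns, replicate 1 listed 27 peaks with a median score of 19, and replicate 2 listed 4. Of the 19 distal peaks there, 15 scored in the lowest 5% of distal peaks. This stretch was singled out after its values were seen. With only the higher-scoring 50% of each list, Cbfa2t3 stood above 97.2% and 93.5% of genes.

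**Figure D3:**
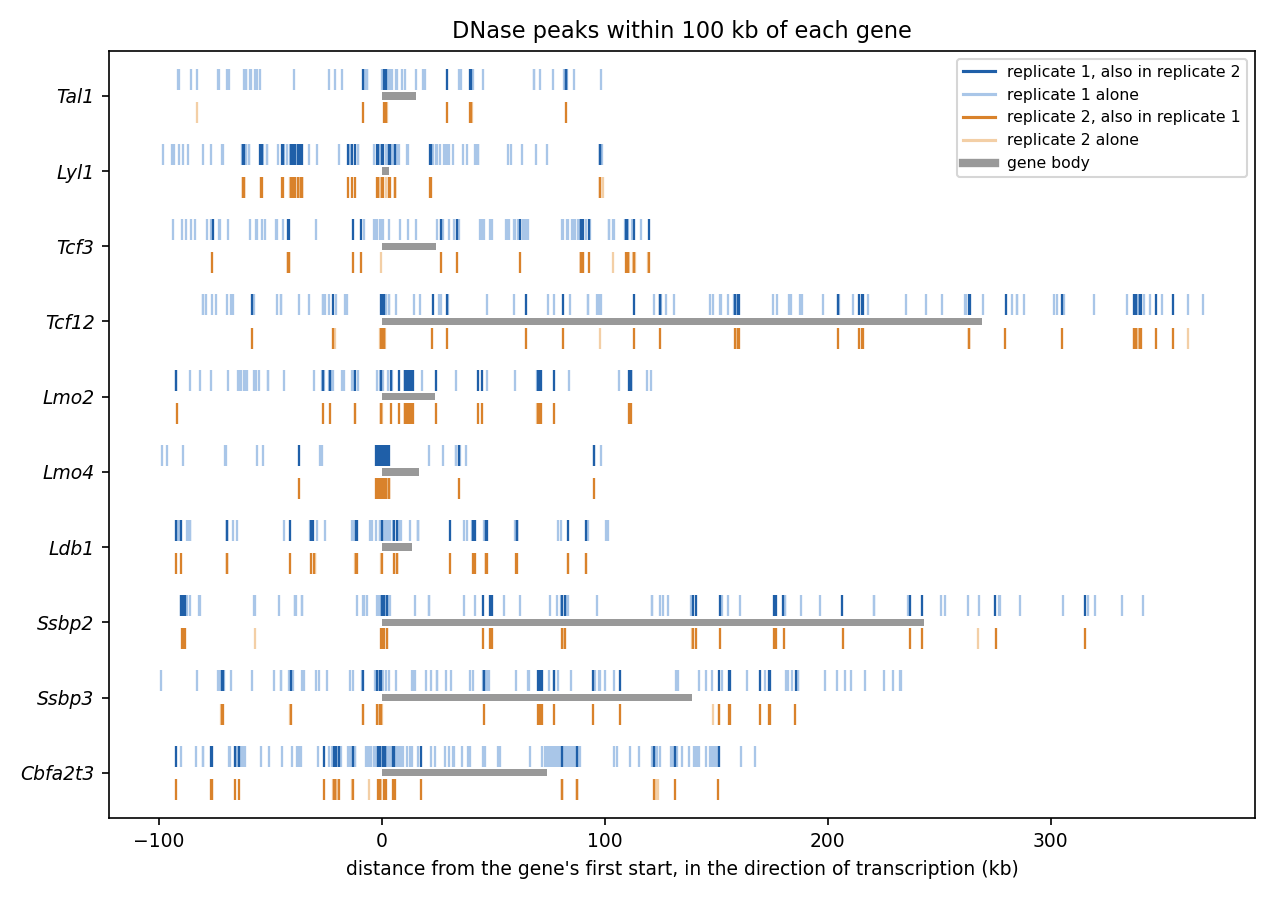
Ticks mark peaks around each gene (rows) by distance from the gene's first start in kb (horizontal axis, positive in the direction of transcription), above the grey gene body for biological replicate 1 and below it for replicate 2. Dark ticks overlap a peak of the other list, 217 of 887 in replicate 1 and 230 of 312 in replicate 2, and pale ticks do not.

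Of the peaks around these genes in replicate 2, 73.7% overlapped a peak of replicate 1 (95% Wilson interval 68.6 to 78.3%), beside 70.6% of the whole list. In the other direction 24.5% did (21.7 to 27.4%), beside 23.6%. Both shares lay near those of all peaks. Intervals cover counting error only, and peaks that lie close together are not independent. By class, 70.4% of own promoter peaks of replicate 2 were shared, beside 63.4% of all promoter peaks. The share was 78.9% for own intronic peaks and 75.3% for all distal peaks around these genes, beside 73.5% of all distal peaks. Per gene the share ran from 62.2% at Cbfa2t3 to 87.5% at Lmo4. Inside a hotspot of replicate 1 lay 311 of the 312 (99.7%), beside 97.8% of the whole list. Over shared peaks, scores of the lists had a Spearman correlation of 0.68 for 134 distal peaks and 0.46 for 38 promoter peaks, beside 0.71 and 0.64 in the whole lists. The points share libraries and neighbourhoods, so these are descriptions.

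At Tal1 the highest ranked site of both lists lay downstream, between Pdzk1ip1 and Cyp4x1, where a region about this far from the gene is known as an erythroid enhancer of Tal1. The site at +40.0 kb (chr4:115096396-115096545 in replicate 2) scored 58 there, above 97.2% of distal peaks, and 146 in replicate 1, above 99.7%. It is the peak printed above with a GATA site and an E-box. Its neighbour at +39.5 kb, with the composite, scored 42 and 125, above 83.5% and 93.5%. A further site at +29.3 kb scored 56, above 96.4%, and overlapped one of 115 in replicate 1. Upstream, a site at −8.39 kb was in both lists, at 36 and 132. Inside the gene replicate 1 listed 5 intronic peaks, led by one at +9.09 kb with a score of 143, and replicate 2 listed none. In replicate 1 this intronic peak, the one at −8.44 kb (132) and one at −62.0 kb (133, in replicate 1 alone) all ranked above the peaks at +39.5 and +29.1 kb.

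Cbfa2t3 had more high-ranking distal sites than any other of the 10 genes in both lists. Within 30 kb upstream of its start replicate 2 listed 14 distal peaks, 9 of them in the top 5% of distal peaks, and replicate 1 listed 24, of which 9 were in the top 5%. They included sites at −1.88 kb (80 in replicate 2, overlapping 148 in replicate 1), −12.9 kb (71 and 150) and −20.8 kb (69, overlapping 147). Composites printed above lay in the peaks at −19.2 kb and −21.5 kb. Farther out, the site at −64.0 kb (chr8:122763036-122763185) had the highest score of any distal site around the 10 genes in replicate 2, 89, above 99.9% of distal peaks, and overlapped one of 145 in replicate 1. It held none of the searched motifs. In the first part of the gene an intronic site at +5.72 kb scored 66 and 131, above 99% and 95.7%, with a pair of GATA matches and a PU.1 match (GAGGAAGT). Over its whole span, 12 of 29 distal peaks of Cbfa2t3 in replicate 2 and 17 of 124 in replicate 1 were in the top 5%. For all 10 genes together these were 18 of 178 (10.1%) and 48 of 688 (6.98%), beside 4.65% and 4.98% of all distal peaks, so Cbfa2t3 gave most of the count in replicate 2. The annotated gene Gm20388 covers the same stretch as Cbfa2t3 and its neighbours, and the sites cannot be assigned to one gene by position.

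**Figure D4:**
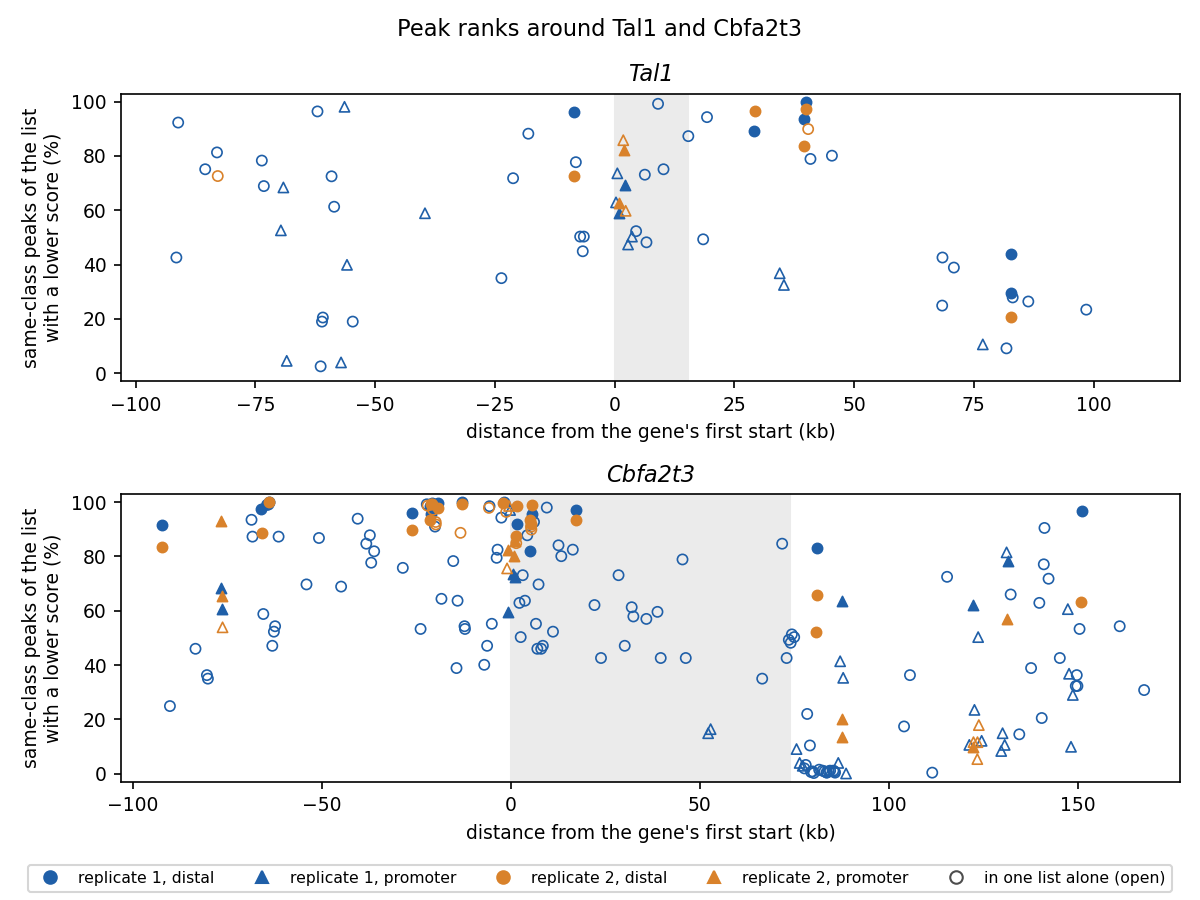
Each point is a peak, by distance from the gene's first start (horizontal axis, kb) and percent of same-class peaks of its list with a lower score (vertical axis), for Tal1 above and Cbfa2t3 below. Circles are distal peaks and triangles promoter peaks, filled where the lists overlap, and the grey band is the gene body. High points gather at about +40.0 kb of Tal1 and upstream of Cbfa2t3, and the run of low points past its 3′ end is from replicate 1.

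At Lyl1 a group of peaks upstream, between 65 and 30 kb from its start, held 23 peaks in replicate 2 and 27 in replicate 1, among them the site at −36.4 kb with 49 and 144. That stretch also holds the starts of Cacna1a and Ier2, and Nfix overlaps Lyl1 itself. The highest intronic peak of Lyl1, at +2.23 kb with 126, was in replicate 1 alone. At Tcf3 the site at +61.9 kb scored 64 and 139, above 98.7% and 98.2% of distal peaks, with a GATA match. No intronic peak of Tcf3 was in both lists, and the highest in replicate 1 scored 94. Tcf12 had an intronic site at +160 kb (49 and 123, with a GATA match) and a site at −21.8 kb (44 and 133).

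Lmo2 had an intronic site at +4.25 kb with 36 and 126, between its distal and proximal starts, and a flanking site at +44.9 kb with 33 and 122. In replicate 2 these ranked above 72.6% and 65.8% of distal peaks. Lmo4 had no intronic peak in either list, and its flanking site of the highest replicate 2 score among shared sites, at −1.93 kb, lay just outside the promoter window with 30 and 107. In replicate 1 the shared site at +34.5 kb scored higher, 110. Ldb1 had an intronic site at +6.88 kb with 50 and 130 and a PU.1 match, above 92.7% and 95.4%. Its flanking site of the highest replicate 2 score among shared sites lay at −90.3 kb within Elovl3, at 54 and 119, and held a match to the CTCF consensus, the motif of the insulator factor. Ssbp2 had an intronic site at +49.0 kb (46 and 104) and a flanking site at −88.9 kb (43 and 122), both with the E-box CAGCTG. Ssbp3 had an intronic site at +70.0 kb (49 and 140), and its flanking site at −2.15 kb, printed above with its composite, scored 72 and 142, above 99.5% and 99% of distal peaks.

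In replicate 2 the composite was found in 19 of 178 distal peaks around the genes of the complex, 10.7% (95% Wilson interval 6.94 to 16.1%), beside 3.6% of all distal peaks. In replicate 1 it was found in 38 of 688, 5.52% (4.05 to 7.49%), beside 3.77%. Cbfa2t3 held 9 of the 19, and at Cbfa2t3 and Tcf3 some lay in peaks that overlap each other. With non-overlapping peaks only, the share in replicate 2 was 9.04%, 15 of 166 peaks (5.55 to 14.4%), beside 3.63%. In replicate 1 it was then 5.53% beside 3.85%. Without Cbfa2t3 the share in replicate 2 was 6.71%, 10 of 149 peaks (3.69 to 11.9%). The lower end of this interval lies close to the 3.6% of all distal peaks. Within the central 100 bp of each peak it was 5.62% beside 2.32%. GATA sites alone (GATA with A or T before it and A or G after it) were no more frequent than elsewhere, at 24.2% beside 28.2% in replicate 2 and 25.1% beside 26.4% in replicate 1. The E-box CAGGTG was found in 11.5% of distal peaks in replicate 1 (9.31 to 14.1%), beside 7.62%, and in 11.2% in replicate 2 (7.39 to 16.7%), beside 8.47%. KLF matches were found in 18.8% beside 14.6%, and 15.2% beside 11%. The peaks around these genes were richer in G and C, with medians of 50.4% and 49.3% beside 47.3% and 46%, and the part of base composition in these shares was not tested. In own promoter peaks, KLF matches were found in 39.4% beside 31.8% in replicate 1 and 27.8% beside 25.8% in replicate 2, and CTCF in 0 of 71 beside 1.11% and 0 of 54 beside 0.724%, shares at which these numbers of peaks would hold fewer than 1 match.

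**Figure D5:**
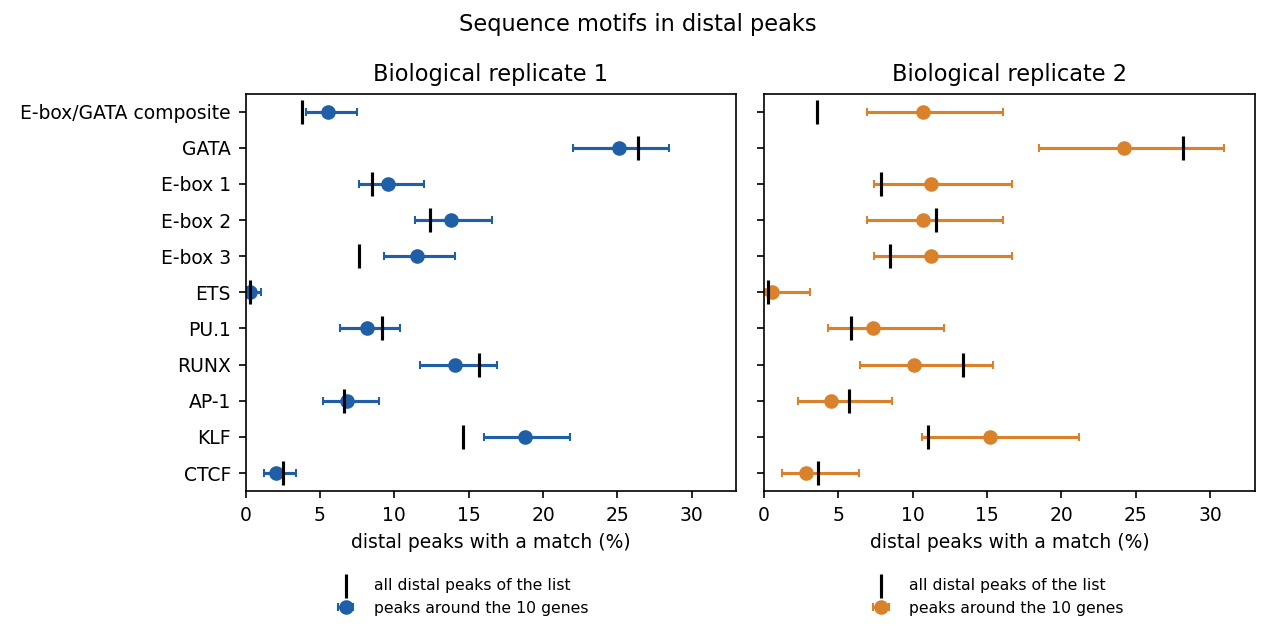
Points give the percent of distal peaks around the 10 genes with at least 1 match to each motif (rows), with 95% Wilson intervals for counting error, and black bars the percent among all distal peaks of the list. E-box 1 is the form CAGCTG, E-box 2 the form CAGATG and E-box 3 the form CAGGTG. The composite lies right of its bar in both panels, at 5.52% and 10.7%, while GATA sites alone lie left of theirs.

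Relatives of these genes divided into those with and without an open promoter. Of 14 paralogues and antagonists, 7 had a promoter peak in both lists, close to the 48.9% of all genes. The same 7 were those with a peak in replicate 1, where the share of all genes was higher, 63.6%. The other 7 had a peak in neither list, and the share of all genes with none was not computed. Those without were Tal2, Nhlh1 and Nhlh2 (relatives of Tal1), Lmo3, Ldb2, Runx1t1 (a relative of Cbfa2t3) and Id4. Of those with a peak, the highest in replicate 2 were Id1 (143 and 61) and Id2 (146 and 58), which encode inhibitors that sequester E-proteins, and Tcf4 (140 and 47), the remaining E-protein. Lmo1, named after its values were seen, was weak at 59 and 13, as against 135 and 48 at Lmo2.

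Among 14 partners and corepressors, promoters with a peak numbered 14 in replicate 1 and 12 in replicate 2, beside 63.6% and 49% of all genes. The highest in replicate 2 were Gata1 (143 and 57), the red cell partner of Tal1, Sin3a (149 and 57), a corepressor scaffold, and Zfpm1 (136 and 56), the Gata1 cofactor also called Fog1. The 2 missing from replicate 2 were Gata2, at 104 in replicate 1, and Erg, at 24. Among 8 targets in red cells the numbers were 8 and 5, set beside the same shares. Myb (120 and 40), which encodes a progenitor transcription factor, and Hemgn (128 and 32) had one in both lists. Slc4a1 (48), Alas2 (92) and Nfe2 (146) had one in replicate 1 alone. The gene lists were drawn up with results of these data known, so their shares describe the chosen genes.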

How the data were processed

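DNase-seq peak and hotspot lists of 1 zinc-treated group (3 libraries) were analysed. Lists were on mm10, per the labels. Records deposited with the libraries name the alignment behind the whole-series lists for both libraries of biological replicate 1 and not for replicate 2, so these lists were read as biological replicate 1. The sources used here do not give the aligner, caller or filters. The authors gave each peak a score, of undefined meaning, and each hotspot a −log10 q value, from 1.3 to a ceiling of 100. No counts were analysed, so depth is unknown and no interval could be given for a single peak. Replicates here are 2 biological replicates with 1 list each.

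Genes and transcript starts came from GENCODE release M21. Peaks within 1000 bp of a start of a protein-coding gene were promoter peaks and the others distal. Peaks at starts of noncoding genes could therefore count as distal. Peaks in 2 lists were shared when they overlapped by 1 bp or more, and ranks are percents of same-class peaks with a lower score. Starts within 1000 bp of the next were joined into a start region. Sequences and 11 motifs were read on both strands from RefSeq's GRCm38.p6 (Python 3.11.15, pandas 2.3.3, pysam 0.24.0, samtools 1.23.1), and the overlap and motif steps were tested on simulated data. The members and lists were chosen with earlier results of these data known. All 10 genes were named. At each, the intronic and the flanking site with the highest replicate 2 score among shared sites (or, with none shared, the highest in replicate 1) were named, and other sites were chosen after their values were seen. So were the sequences printed, apart from that of the named Ssbp3 site. Printing promoter peaks was planned, from replicate 2 where it had one. Which genes are shown, and the use of replicate 1 at Cbfa2t3, were not part of that plan. Of the gene lists, those without a promoter peak and up to 3 of the highest in replicate 2 were named. Partners and targets with a promoter peak in replicate 1 alone, and Lmo1, were named outside this rule. The value of 1 listed gene is not reported here. Alternatives were other windows, flanks, overlaps, scores, list lengths, central bases and hotspots. Leaving out Cbfa2t3 or overlapping peaks was added after the data were seen.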

Additional observations from a re-analysis of the deposited data

How the results depend on the processing

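Over 13 results, 46 alternatives were computed, of which 16 moved the value and 30 did not. A count was taken as moved when it changed by over 1.5 times, a share when it left its Wilson interval and a median rank when it changed by over 1 SD between the lists. All 10 genes kept a promoter peak under each of 8 alternatives, leaving out either replicate included (10 to 10), beside 44.3 to 63.6% of all genes. Distal peaks numbered 1051 and 296 in replicates 1 and 2 with 200 kb flanks and 356 and 110 among the higher-scoring 50% of peaks, and 261 in replicate 1 when its list was shortened to the length of the other. The share of peaks around these genes that overlapped the other list was 18.5% and 53.8% when 50% of both peaks had to overlap, 28.5% and 99.7% when a hotspot of the other list counted, and 45.4% and 61.9% with lists of equal length. The median promoter rank was 97.6% and 90.1% among all peaks. The composite was in 3.63% and 5.62% of distal peaks within the central 100 bp, beside 2.46% and 2.32% of all, and in 6.71% in replicate 2 without Cbfa2t3. The number of genes above the median density ran from 7 to 9 in replicate 1 and from 7 to 10 in replicate 2. No paired analysis was possible because no result comes from a test and all libraries form 1 treatment. The unknown depth, the ceiling of 100 on the hotspot values and the undefined score limit every comparison between the lists to presence, overlap and rank.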
